A study of Mus musculus with 12 samples.

Results

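The genes of the filaggrin-like S100 fused protein family were followed in mouse mammary organoids: Flg (filaggrin), Flg2 (filaggrin 2), Hrnr (hornerin), Rptn (repetin), Tchh (trichohyalin) and Crnn (cornulin). They were taken by name from a table of raw read counts, where they are 6 of 25210 genes. All 6 passed a read filter over all libraries and were among the 15316 genes tested, 5 of them only through reads after treatment. The organoids were primary mammary epithelial cultures from virgin female FVB/N mice aged 8-11 weeks, grown in Matrigel for 7 days. They received the vehicle dimethyl sulfoxide (DMSO) or 1, 1.5 or 3 µM of CHIR99021, a small molecule that blocks GSK3. That kinase marks β-catenin for degradation, and the series examines raised WNT/CTNNB1 signalling. Per the labels, 3 cultures from 3 animals each received all 4 treatments, so that there are 12 libraries of polyadenylated RNA with 3 per group. No transgene or deletion is named in the labels, and the DMSO libraries serve as the control for every dose.

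The family joins an S100-type calcium-binding domain to a long stretch of repeated sequence within a single protein. Its genes lie side by side in the epidermal differentiation complex, the cluster that also holds loricrin, involucrin and the small late cornified envelope genes. In the epidermis profilaggrin and its relatives are stored in keratohyalin granules of the granular layer and are cut into smaller units as the cells cornify. Filaggrin then bundles keratin filaments, and its breakdown products hold water in the stratum corneum. Repetin and hornerin are cross-linked into the cornified envelope, trichohyalin hardens the inner root sheath of the hair follicle and the papillae of the tongue, and cornulin is best known from the squamous lining of the mouth and oesophagus. None of them is a usual product of the mammary gland, whose epithelium consists of luminal and basal cells.

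The 6 genes follow each other on the plus strand of chromosome 3 in the order Crnn, Flg2, Flg, Hrnr, Rptn and Tchh, with 26.1 to 60.1 kb between neighbours. In the deposited coordinates (GRCm38) Crnn (ENSMUSG00000078657) spans chr3:93144787-93149471, Flg2 (ENSMUSG00000049133) chr3:93200210-93220793 and Flg (ENSMUSG00000081977) chr3:93273541-93293691. Hrnr (ENSMUSG00000041991) spans chr3:93319749-93333570, Rptn (ENSMUSG00000041984) chr3:93393699-93399442 and Tchh (ENSMUSG00000052415) chr3:93442330-93449077. Since the 6 genes are compared as neighbours that moved over the same doses, the stretch from 130 to 21 bases before each RefSeq start (GRCm38.p6, plus strand) is shown. Capitals mark TGANTCA and TATAAA, the core of the TATA box. TGANTCA is a looser form of TGACTCA or TGAGTCA, the element bound by the AP-1 factors that act in keratinocyte differentiation.
Crnn (chr3:93144659-93144768): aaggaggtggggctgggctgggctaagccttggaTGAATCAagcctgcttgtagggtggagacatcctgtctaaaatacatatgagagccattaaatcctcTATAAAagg
Flg2 (chr3:93197143-93197252): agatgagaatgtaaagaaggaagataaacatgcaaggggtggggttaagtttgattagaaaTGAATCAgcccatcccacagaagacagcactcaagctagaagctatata
Flg (chr3:93273416-93273525): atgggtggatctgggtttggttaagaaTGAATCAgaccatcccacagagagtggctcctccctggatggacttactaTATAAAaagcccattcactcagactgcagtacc
Hrnr (chr3:93319619-93319728): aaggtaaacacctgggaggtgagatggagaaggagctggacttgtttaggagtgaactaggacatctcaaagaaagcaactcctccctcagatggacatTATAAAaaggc
Rptn (chr3:93393569-93393678): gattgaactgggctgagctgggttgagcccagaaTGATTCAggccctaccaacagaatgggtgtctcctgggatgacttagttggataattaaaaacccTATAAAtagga
Tchh (chr3:93442200-93442309): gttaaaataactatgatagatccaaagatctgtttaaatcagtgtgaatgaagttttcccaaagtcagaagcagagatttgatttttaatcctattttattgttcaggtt
TGANTCA, which reads the same on both strands, occurred in 4 of the 6 promoters, counted over the 250 bases before to 50 bases after the start. It began 96 bases before the start in Crnn and Rptn, 69 in Flg2 and 103 in Flg, and it was not in these windows of Hrnr and Tchh. The same letters were in 7.81% of all 32851 RefSeq promoters of this length. TATAAA, added to the search after the sequences had been seen, occurred in Crnn, Flg, Hrnr and Rptn and in 13.6% of all promoters. CTTTGA on either strand, the core of the site bound by the TCF/LEF factors that work with β-catenin, occurred in Flg2, Hrnr and Tchh and in 16.0% of all promoters. These are matches of letters, and no binding was measured here. The RefSeq start of Flg2 is at position 93197273, ahead of the start in the deposited table, and the other 5 starts lie close to the deposited ones.

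The repeats that give the proteins their length also mark the transcripts. Of all 50-base windows, 79.2% in the Flg transcript (14497 bases) and 69.1% in that of Hrnr (11187 bases) occur again within the same transcript. The share was 26.3% in Flg2 (7011 bases), 10.1% in Tchh (5823 bases), 5.49% in Rptn (4146 bases) and 0 in Crnn (1628 bases). None of the windows of the 6 transcripts was found in the transcript of another gene. A lincRNA on the opposite strand, Gm37245, overlaps Hrnr, Rptn and Tchh, Gm37857 overlaps Rptn on the same strand, and the pseudogene Rplp0-ps1 lies within Flg. How the authors' counting treated repeated reads and strand is not given in the sources used here, so the levels of the repeat-rich Flg and Hrnr and reads from overlapping genes are uncertain to that extent.

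Library totals ran from 10.1 to 24.5 M counts (M, mega). Levels are given as counts per M counts (CPM), on library sizes corrected with TMM, edgeR's trimmed-mean scaling. The labelled tissue was present by its markers: 7 of 7 luminal and 7 of 7 basal markers passed the filter, and their summed CPM in DMSO ran from 2755 to 4527 and from 2034 to 3393. At 3 µM 5 of the luminal markers had fallen and the sum ran from 2084 to 2231. Of the basal markers the keratins Krt5, Krt14 and Krt17 and the regulator Trp63 had risen and the contractile genes Acta2, Myh11 and Oxtr had fallen, with a sum of 16151 to 33970. The 4 adipocyte markers fell from a sum of 2989 to 8054 in DMSO to 36.0 to 227, and the 4 endothelial markers from 237 to 491 to 26.7 to 85.4. The 7 immune markers summed to 256 to 2520 CPM in DMSO and 39.0 to 116 CPM at 3 µM, and 4 of the 5 tested had fallen. Of all genes tested, 29.9% had risen and 27.7% had fallen at 3 µM. Lep was at 0 in a library at 3 µM. The part of these shifts in the results was not tested. In bulk samples such as these, more cells of a type and more RNA per cell cannot be told apart.

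The summed level of the 6 genes was higher at each dose than at the one before in all 3 cultures. It was 2.58, 1.52 and 1.67 CPM in DMSO in cultures 1, 2 and 3, and 29.0, 29.2 and 7.16 CPM at 1 µM. At 1.5 µM it reached 270.0, 294 and 77.1 CPM, and at 3 µM 1038, 1080.3 and 682 CPM. Nearly all of the DMSO signal came from Tchh, and the 5 other genes together had 9 reads in the 3 DMSO libraries. At 3 µM the 6 genes held 0.0905%, 0.0911% and 0.0626% of all counts.

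**Figure D1:**
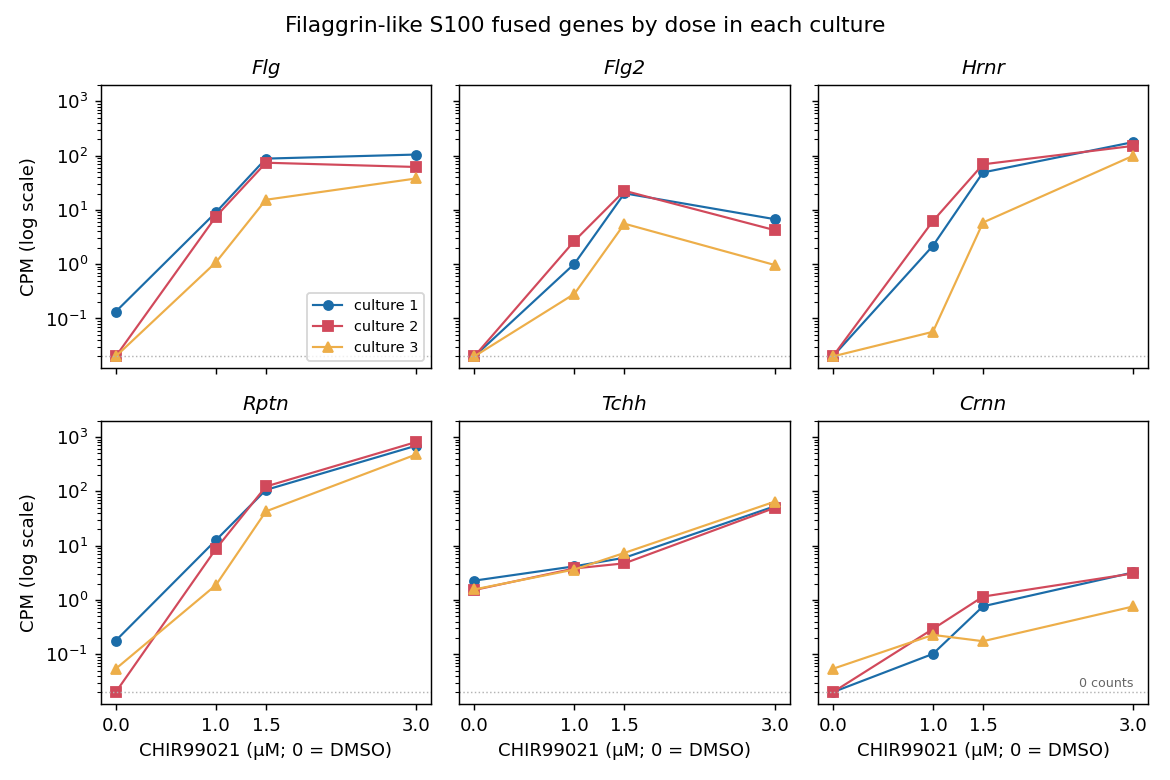
CPM (log scale) of each of the 6 genes against the CHIR99021 dose in µM, with 1 line per culture and libraries without a read drawn on the dotted line. Flg2 is highest at 1.5 µM in all 3 cultures, Flg lies close together at 1.5 and 3 µM in cultures 1 and 2, and Hrnr, Rptn, Tchh and Crnn are highest at 3 µM, while culture 3 lies below the other cultures at 1.5 and 3 µM for every gene but Tchh.

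Filaggrin itself, the keratin-bundling protein after which the family is named, was almost without reads in DMSO, with 3, 0 and 0 counts (0.133, 0 and 0 CPM). Its level was 8.99, 7.50 and 1.08 CPM at 1 µM, 87.9, 73.8 and 15.4 CPM at 1.5 µM and 104.4, 61.7 and 37.9 CPM at 3 µM. Every treated library was above every DMSO library, whereas the groups at 1.5 and 3 µM overlapped. At 1.5 µM the depth-scaled ratio of summed counts to DMSO was 1027, with a 95% counting interval of 351 to 4980 that reflects the 3 reads in DMSO (log2 fold change 9.82 ± 1.32 SE, edgeR quasi-likelihood adjusted p = 0.000877). At 3 µM it was 1126, with an interval of 385 to 5465 (log2 10.03 ± 1.32, edgeR adjusted p = 0.000148). The step from 1 to 1.5 µM was 10.1-fold on the group means (log2 3.33 ± 0.81, edgeR adjusted p = 0.0430). That call was lost when any 1 library was left out, other than replicate 3 at 1.5 µM or replicate 3 at 3 µM, with adjusted p up to 0.139. From 1.5 to 3 µM the level changed by 0.20 ± 0.73 on the log2 scale (edgeR adjusted p = 0.856), and it was higher in 2 of 3 cultures. The sign of that small difference turned with library-size scaling alone (−0.091) and without replicate 1 at 3 µM (−0.24) or replicate 3 at 1.5 µM (−0.25).

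Flg2, whose product shares filaggrin's repeats and its route of processing, had no read in any DMSO library. At 1 µM it stood at 1.02, 2.68 and 0.284 CPM, at 1.5 µM at 20.2, 22.5 and 5.56 CPM and at 3 µM at 6.74, 4.24 and 0.966 CPM. The highest level was at 1.5 µM in each culture, and the level there was 2.99, 5.31 and 5.76 times that at 3 µM. Flg2 was the only gene of the family with this order in 3 of 3 cultures, which 2.89% of all genes tested had. Hrnr, Rptn, Tchh and Crnn were highest at 3 µM in 3 of 3 cultures, as were 26.6% of all genes. Against a floor of 3 counts in the smallest DMSO library (0.305 CPM), Flg2 was at least 52.8-fold higher at 1.5 µM (edgeR adjusted p = 0.00320) and at least 13.1-fold higher at 3 µM (edgeR adjusted p = 0.00317). The difference between 3 and 1.5 µM was −2.02 ± 0.89 on the log2 scale and the groups overlapped, with culture 3 low at each dose (edgeR adjusted p = 0.125). With the culture as a block the difference was −2.09 with an adjusted p of 0.00355. Without culture 3 it was −1.98 with an adjusted p of 0.0258, without culture 1 −2.43 (0.254) and without culture 2 −1.74 (0.440). The other 18 of 20 alternatives did not call it, and all 20 gave a lower level at 3 µM.

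Hornerin, a repeat-rich relative of filaggrin that enters the cornified envelope, was likewise without a read in DMSO. Its level was 2.18, 6.24 and 0.0568 CPM at 1 µM, 48.9, 69.0 and 5.85 CPM at 1.5 µM and 177, 151 and 99.4 CPM at 3 µM. Culture 3 had 1 read at 1 µM and reached a level near the others only at 3 µM, where the 3 libraries lay above all those at 1.5 µM. Hrnr was at least 135-fold higher at 1.5 µM (edgeR adjusted p = 0.00655) and at least 468-fold higher at 3 µM than the floor in DMSO (edgeR adjusted p = 0.000996). The level at 3 µM was 3.62, 2.19 and 17.0 times that at 1.5 µM in the 3 cultures. This step did not pass the test without the block (log2 1.79 ± 1.01, edgeR adjusted p = 0.214) and passed it with the block (2.34, adjusted p = 0.0211) and without culture 3 (1.45, adjusted p = 0.0427). The other 18 of 20 alternatives did not call it, with adjusted p up to 0.470 without culture 1.

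Repetin, an envelope precursor rich in glutamine repeats, became the most abundant of the 6. It had 4, 0 and 1 counts in DMSO (0.178, 0 and 0.0539 CPM). Its level rose to 12.6, 8.67 and 1.87 CPM at 1 µM, 106, 123 and 42.8 CPM at 1.5 µM and 693, 811 and 478 CPM at 3 µM. No group overlapped with the next. At 3 µM the depth-scaled ratio of summed counts to DMSO was 6756, with a 95% counting interval of 2895 to 20808 (log2 12.63 ± 1.02, edgeR adjusted p = 8.09e-06). Rptn also passed the test at 1 µM (6.22 ± 1.01, edgeR adjusted p = 0.0417), from 1 to 1.5 µM (3.55 ± 0.62, adjusted p = 0.0136) and from 1.5 to 3 µM (2.86 ± 0.59, adjusted p = 0.00609). The call at 1 µM was lost on leaving out any 1 library other than replicate 3 at 1 µM or at 1.5 µM, with adjusted p from 0.0620 to 0.203, and on leaving out culture 1 (0.549) or culture 2 (0.949). The call from 1 to 1.5 µM did not hold when replicate 1 at 1.5 µM (adjusted p = 0.0521) or replicate 2 at 1 µM (0.0716) was left out, nor without culture 1 (0.160) or culture 2 (0.339). The call from 1.5 to 3 µM was lost without culture 1 (0.0674) or culture 2 (0.129).

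Trichohyalin, the hair follicle and tongue member, was the one gene of the family with reads in all DMSO libraries. Its counts there were 51, 15 and 29, which is 2.27, 1.52 and 1.56 CPM. It stood at 4.16, 3.80 and 3.64 CPM at 1 µM, at 5.98, 4.73 and 7.36 CPM at 1.5 µM and at 53.1, 49.6 and 64.6 CPM at 3 µM. The groups did not overlap, and the cultures lay close together at every dose. The last step was the steepest, at 8.87-, 10.5- and 8.78-fold in the 3 cultures (log2 3.21 ± 0.21, edgeR adjusted p = 3.90e-05). Against DMSO the mean was 3.38-fold higher at 1.5 µM (1.73 ± 0.21, edgeR adjusted p = 0.000567) and 31.3-fold higher at 3 µM (4.94 ± 0.23, adjusted p = 8.34e-07). At 1 µM the difference of 1.09 ± 0.21 did not pass the test without the block (edgeR adjusted p = 0.0904) and passed it with the block (adjusted p = 0.0196).

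Cornulin, the member known from the oral and oesophageal lining, had the fewest reads of the 6 genes at 3 µM. It had 1 count in the 3 DMSO libraries together, 2, 6 and 4 counts at 1 µM, 12, 30 and 3 at 1.5 µM and 41, 48 and 11 at 3 µM. In CPM the last group stood at 3.21, 3.08 and 0.759. Culture 3 had fewer reads at 1.5 than at 1 µM, and its highest count was at 3 µM. The depth-scaled ratio of summed counts to DMSO was 118.9 at 3 µM, with a 95% counting interval of 20.9 to 4742 (edgeR log2 6.46 ± 1.09, adjusted p = 0.000650). At 1.5 µM it was 38.8, with an interval of 6.62 to 1568 (edgeR 4.74 ± 1.14, adjusted p = 0.0127). From 1.5 to 3 µM Crnn was higher by 4.21, 2.67 and 4.37 times in the 3 cultures (log2 1.72 ± 0.71, edgeR adjusted p = 0.0923, with the block 0.0148). Without replicate 3 at 3 µM the adjusted p was 0.0313.

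Counted over the family, the number of genes that passed the test grew between the lowest and the middle dose. At 1 µM 1 of the 6 genes was called higher than DMSO, where 0.189% of all genes tested were. With the culture as a block 4 were called (Flg, Flg2, Rptn and Tchh), against a background of 2.55%. At 1.5 µM all 6 were called higher (background 15.4%), and at 3 µM all 6 (background 29.9%). The 5 genes other than Tchh, with 9 DMSO reads together, passed the filter only through the treated groups, so passing it is no separate result. With the DMSO and 1 µM groups alone, Crnn, Flg2 and Hrnr did not pass it. All 6 genes also had every treated library above every DMSO library at each dose, which held for 11.2%, 24.9% and 30.9% of all genes tested at 1, 1.5 and 3 µM. The 3 comparisons share the DMSO libraries, so they are not independent of each other. The median fitted log2 fold change of the 6 genes was 6.36, 9.80 and 9.58 at 1, 1.5 and 3 µM, and 3.11, 6.40 and 7.66 with Flg2 and Hrnr set at their lower bounds. The median over all genes tested was −0.00, −0.00 and −0.03. Without culture 1 the count at 1.5 µM dropped to 3 (Crnn, Flg2 and Hrnr lost), and without culture 2 to 2 (Flg lost as well). At 3 µM Flg2 alone was lost, without culture 1 (edgeR adjusted p = 0.0517).

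Between neighbouring doses the genes parted. From 1 to 1.5 µM 2 of the 6 were called higher, Flg and Rptn, where 4.43% of all genes were. With the block 5 were, all but Crnn (background 11.3%), and the adjusted p was 0.00209 for Flg2, 0.0134 for Hrnr and 0.0338 for Tchh. From 1.5 to 3 µM 2 were called higher, Tchh and Rptn (background 17.0%). With the block 4 were called higher, with Hrnr and Crnn added (background 24.7%), and 1 lower, Flg2 (background 22.0%). A slope over dose passed the test in 5 of 6 genes, with and without the block, and 30.2% of all genes rose by this test. Per µM the slope was 3.47 ± 0.46 on the log2 scale for Rptn, 2.93 ± 0.61 for Hrnr, 2.44 ± 0.76 for Flg, 1.78 ± 0.30 for Crnn and 1.70 ± 0.10 for Tchh. For Flg2 it was 1.74 ± 1.18 (edgeR adjusted p = 0.223). The slope of Flg no longer passed without culture 1 (0.0603) or culture 2 (0.0629). Scaling by library size alone moved the median of all genes at 3 µM against DMSO from −0.03 to −0.23, and against 1.5 µM from −0.00 to −0.28. The share of higher genes among those called fell with it, from 51.9% to 38.6% and from 57.2% to 21.4%, while the directions of the 6 genes held in both comparisons except for Flg between 1.5 and 3 µM.

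**Figure D2:**
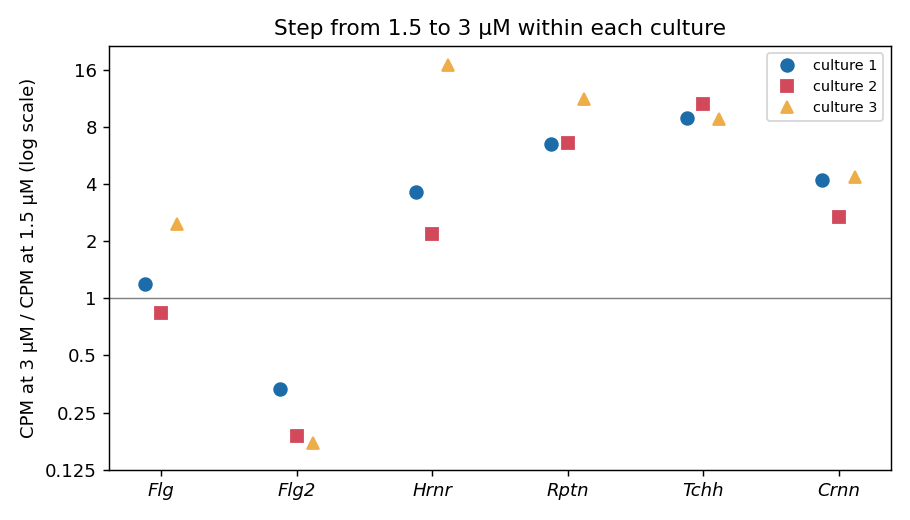
Ratio of the CPM at 3 µM to the CPM at 1.5 µM (log scale) for each gene, with 1 point per culture and a line at no difference. Flg2 lies below the line in all 3 cultures, Flg lies on either side of it, and Hrnr, Rptn, Tchh and Crnn lie above it in all 3, from 2.19 to 17.0.

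The cultures differed from each other at the same dose. In a model with group and culture, the culture term was called for 3 of the 6 genes, where 28.8% of all genes were called. These were Flg (edgeR adjusted p = 0.00453), Flg2 (0.0119) and Rptn (0.0209). Relative to culture 1, culture 3 was lower by 2.12 on the log2 scale for Flg and for Flg2, by 1.72 for Hrnr, by 1.38 for Crnn and by 1.32 for Rptn, and it stood at 0.03 for Tchh. Culture 2 lay between −0.42 and 0.56 of culture 1 for all 6 genes. The term was not called for Crnn (adjusted p = 0.0868), Hrnr (0.0984) or Tchh (0.269). Without replicate 3 at 1.5 µM the call of Rptn was lost (0.0912), and without replicate 2 or 3 at 3 µM Hrnr was called (0.0449 and 0.00908). The 6 fibroblast markers also differed by culture, with a summed level of 20187, 19155, 11446 and 4484 CPM in culture 3 from DMSO to 3 µM. In culture 1 the sum was 1548, 1601, 526 and 164 CPM, and in culture 2 7165, 6407, 2048 and 923 CPM. None of these markers was called at 3 µM without the block, where 29.9% of all genes were higher and 27.7% lower. With the block 5 of the markers were lower, and their part in the culture difference was not tested.

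Levels of different genes were compared per kb of transcript. At 3 µM Rptn stood at 159 ± 40.7 CPM per kb, followed by Hrnr at 12.7 ± 3.54, Tchh at 9.58 ± 1.35, Flg at 4.69 ± 2.33, Crnn at 1.44 ± 0.848 and Flg2 at 0.568 ± 0.413 (SD, n = 3). The libraries of Hrnr and Tchh overlapped on this scale, as did those of Crnn and Flg2, and the other neighbours in this order did not. At 1.5 µM the order was Rptn with 21.9 ± 10.2 CPM per kb, Flg with 4.07 ± 2.65, Hrnr with 3.69 ± 2.88, Flg2 with 2.29 ± 1.31, Tchh with 1.03 ± 0.226 and Crnn with 0.428 ± 0.303. Only Rptn and Flg, and Tchh and Crnn, did not overlap as neighbours in that order. These values rest on the full length of 1 transcript per gene. Repeated windows made up 79.2% of the Flg transcript and 69.1% of that of Hrnr, against 5.49% in Rptn. If reads from repeats were not counted, Flg and Hrnr stand too low on this scale. Their places in the order and the sizes of the shares below are therefore uncertain. With the length of all annotated exons, chosen as an alternative after the data were seen, Hrnr stood above Flg at 1.5 µM (3.69 and 3.14 CPM per kb) and Tchh above Flg2 (1.03 and 0.773), while the order at 3 µM held. The filaggrin pair held a smaller part of the family's signal at 3 than at 1.5 µM in each culture. Flg and Flg2 together made up 22.1%, 18.2% and 13.2% of the summed CPM per kb in cultures 1, 2 and 3 at 1.5 µM, and 4.04%, 2.17% and 1.99% at 3 µM. Rptn made up 63.4%, 65.0% and 73.4% at 1.5 µM and 82.7%, 87.2% and 83.3% at 3 µM. Neither set of shares overlapped between the doses. The exact two-sided permutation test, which left out the pairing by culture, gave p = 0.1 for each (0.25 adjusted over 5 shares). That is the smallest p that 3 against 3 libraries allow without pairing. The shares are parts of the same total, so they are not separate results. On the length of all exons the filaggrin pair made up 8.15% to 15.2% at 1.5 µM and 1.49% to 2.94% at 3 µM. At 1 µM the shares varied more, with 8.60% to 20.5% for the filaggrin pair and 14.9% to 46.7% for Tchh.

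**Figure D3:**
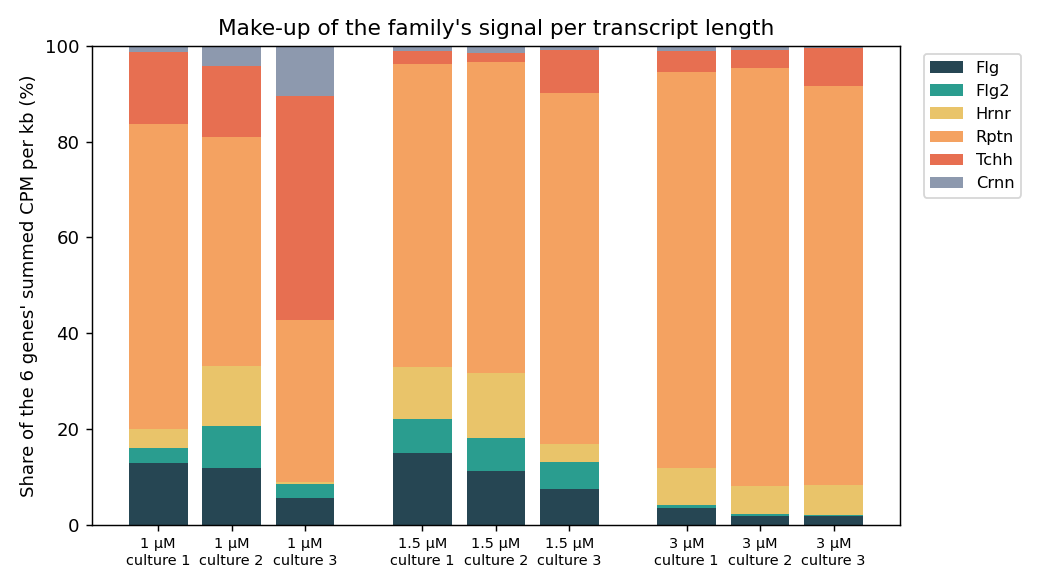
Share (%) of each gene in the summed CPM per kb of the 6 genes, with 1 bar per treated library. Rptn fills 82.7% to 87.2% of each bar at 3 µM, and the Flg and Flg2 segments together shrink from between 13.2% and 22.1% at 1.5 µM to between 1.99% and 4.04%.

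The proteins are cut and modified after translation by proteases, peptidylarginine deiminases and their regulators, and 15 genes of this filaggrin processing were examined. At 3 µM 10 of the 15 had risen and 1 had fallen, with a median log2 fold change of 3.98. The counts were 3 and 0 at 1 µM (median 0.39) and 7 and 0 at 1.5 µM (median 1.41). Of all genes tested, 29.9% rose and 27.7% fell at 3 µM, 15.4% rose and 11.8% fell at 1.5 µM, and 0.189% rose at 1 µM. The kallikreins Klk5, Klk7 and Klk14, serine proteases of the stratum corneum, rose by 8.89 ± 0.62, 7.88 ± 0.54 and 7.35 ± 0.44 on the log2 scale at 3 µM. Asprv1, the aspartic protease that cleaves the profilaggrin linker, rose by 8.45 ± 0.75, from a mean of 3.57 CPM in DMSO to 58.0 CPM at 1 µM and 439 CPM at 1.5 µM. Klk5, Klk7 and Asprv1 were the 3 genes called at 1 µM, with edgeR adjusted p of 0.0247, 0.0173 and 0.0384. Furin, a proprotein convertase named here after its value was seen, was the gene that fell, by 0.55 ± 0.14 (edgeR adjusted p = 0.00615).

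Of 13 cross-linking enzymes and partners in the envelope and keratin network, 12 were tested. At 1.5 and at 3 µM 11 rose and 0 fell, with median log2 fold changes of 6.16 and 7.61. At 1 µM 0 were called (median 3.05), and 6 rose with the block. Of all genes tested, 15.4% rose at 1.5 µM, 29.9% at 3 µM and 2.55% at 1 µM with the block. The suprabasal keratins Krt1 and Krt10, whose filaments filaggrin bundles, rose by 12.46 ± 1.87 and 9.77 ± 1.60 at 3 µM. Their levels there ran from 269.8 to 6743 CPM for Krt1 and from 154 to 8798 CPM for Krt10. Tgm3, a transglutaminase that cross-links trichohyalin and envelope proteins, rose by 10.84 ± 1.63, and Lor, the main envelope protein loricrin, by 10.68 (edgeR adjusted p = 0.00126). Tgm5 was not called (1.88 ± 1.02, edgeR adjusted p = 0.136), while with the block it was (0.00167).

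The settings in which Tchh and Crnn are best known were examined through other genes of those tissues. Of 10 inner root sheath genes 4 could be tested, and at 3 µM 2 rose and 1 fell, beside 29.9% and 27.7% of all genes. The inner root sheath keratin Krt71 fell by 4.98 ± 0.85 (edgeR adjusted p = 0.000687). Krt73, another keratin of the sheath, rose by 5.71 at 1.5 µM (edgeR adjusted p = 0.000578) and stood at 2.64 ± 0.73 at 3 µM (adjusted p = 0.0105). It was highest at 1.5 µM in 3 of 3 cultures. Tchhl1, the trichohyalin-like neighbour of Tchh, rose by 6.48 ± 0.72. Gata3, a factor of luminal mammary cells as well as of the sheath, was not called (−0.54 ± 0.27, edgeR adjusted p = 0.110). With the block it was called lower (0.000561). Its mean was 87.5 CPM in DMSO and 60.3 CPM at 3 µM, against 2.46 and 0.0753 CPM for Krt71. Which cells its reads came from was not tested. Of 8 genes of the oral and oesophageal lining 5 could be tested, and 4 rose at 3 µM, with 1 called at 1.5 µM and 0 at 1 µM. Of all genes tested, 29.9% rose at 3 µM, 15.4% at 1.5 µM and 0.189% at 1 µM. The 4 genes were the keratins Krt84 (8.26 ± 1.45), Krt78 (7.09 ± 0.45) and Krt4 (3.99 ± 1.11) and the membrane protein gene Mal (3.25 ± 0.50). At 3 µM Krt84 ran from 1.17 to 42.0 CPM. Krt4 ran from 0.414 to 14.8 CPM there and up to 0.862 CPM in DMSO, so these groups overlapped. Krt36 was not called (1.04 ± 1.32). The untested Krt13, Krt76 and Sprr3 had at most 20, 3 and 48 reads in a library. Of the hair matrix and pigment cell markers 2 of 6 could be tested and 0 were called, with summed levels of 2.13 to 3.24 CPM in DMSO and 1.31 to 7.61 CPM at 3 µM.

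The genes around the family were examined in the same way. Within 250 kb of the stretch they occupy lie 13 other genes of the table, of which 12 were tested. At 3 µM all 12 had risen (median log2 fold change 7.79), as had 29.9% of all genes, and at 1.5 µM 10 had (median 5.87), as had 15.4%. At 1 µM 0 were called (median 3.04). With the block 3 were higher and 1 lower at 1 µM, where 2.55% of all genes were higher and 3.06% lower. The late cornified envelope genes upstream of Crnn showed the largest values, with 11.16 ± 0.92 for Lce3b and 10.54 ± 0.72 for Lce3a at 3 µM. Each of these had 1 read in the DMSO libraries together, so the size of the change depends on the fit. The S100 genes downstream of Tchh, which encode short calcium-binding proteins without repeats, showed the smallest, with 0.74 ± 0.13 for S100a10 and 0.56 ± 0.17 for S100a11. Lce1m, just upstream of Crnn, had a mean of 10.2 CPM at 1.5 µM and 9.04 CPM at 3 µM. Rplp0-ps1, which lies within Flg and could share its reads, rose by 2.22 ± 0.49.

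**Figure D4:**
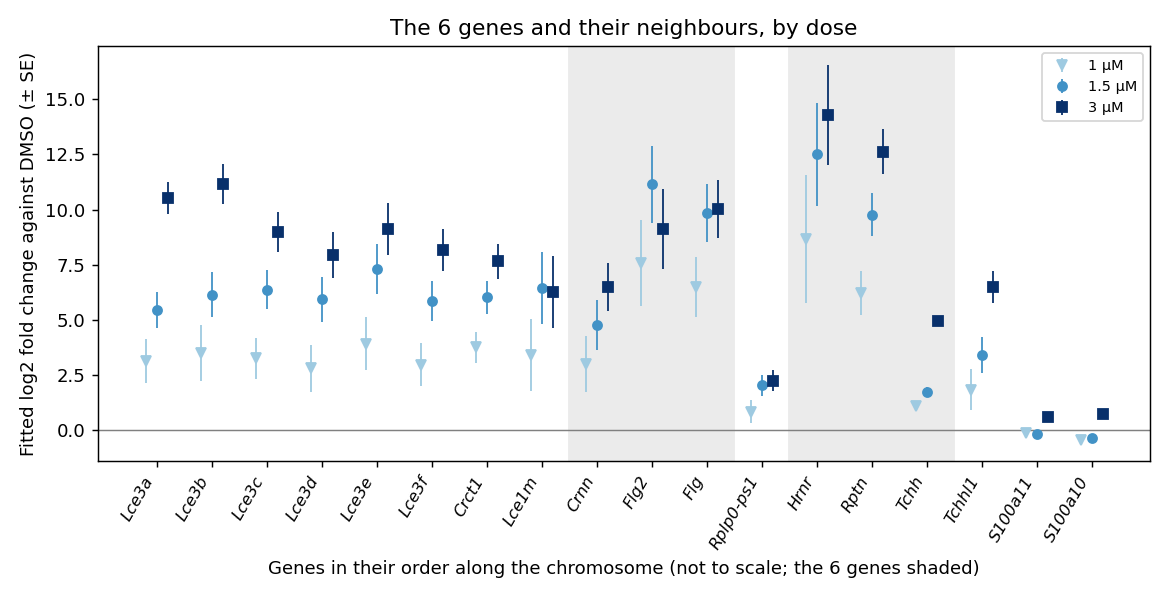
Fitted log2 fold change against DMSO (± SE) at 1, 1.5 and 3 µM for the 6 genes (shaded) and the 12 tested neighbours, in their order along the chromosome. The values of the Lce3 genes and of Tchh, Tchhl1 and Rptn climb with dose, Flg2 is highest at 1.5 µM, and S100a11 and S100a10 have the smallest values at 3 µM (0.56 and 0.74). The values of Flg2 and Hrnr depend on the fit because their DMSO libraries hold no read. Those of Crnn, Lce3a, Lce3b and Tchhl1 rest on 1 DMSO read each, that of Flg on 3, and those of Rptn and Lce3e on 5 each.

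Within the family the log2 levels over the 12 libraries were most alike for Hrnr and Rptn (Pearson r 0.973), Flg and Rptn (0.971) and Flg and Hrnr (0.961). They were least alike for Flg2 and Tchh (0.493). These libraries share cultures and doses, so the values describe this set of samples. The correlation also does not compare the size of the changes. Among 12434 other genes with at least 50 counts on average, those most like Rptn were Klk5 (0.995), the retinol-binding protein gene Rbp2 (0.993) and Nccrp1 (0.993). For Hrnr they were Serpina12 (0.993), the interleukin-1 family gene Il1f8 (0.992) and the envelope gene Lce1c (0.991). For Flg they were Dsc1 (0.991), a desmosomal cadherin of the upper epidermis, Lce1e (0.991) and the secreted phospholipase gene Pla2g2f (0.990). Flg2 had no gene as close, with 0.950 for Psip1, 0.947 for Ints4 and 0.945 for Sprr4. Sprr4, an envelope precursor, stood at 0.181 ± 0.268, 3.57 ± 1.81, 20.1 ± 2.24 and 5.91 ± 3.45 CPM from DMSO to 3 µM (SD, n = 3), the same order of doses as Flg2. Tchh was most like Sars (0.991), the gap junction gene Gja1 (0.989) and Wdr61 (0.987). Gja1 stood at 213 ± 24.8 CPM in DMSO and 939 ± 164 CPM at 3 µM, and Sars at 196 ± 10.9 and 384 ± 12.8 CPM. Crnn was most like Ammecr1 (0.992), Ankrd35 (0.979) and the splicing factor gene Sf3a1 (0.975). Some of these genes changed far less than the members: Psip1 went from 53.5 CPM in DMSO to 63.7 CPM at 3 µM, and Sf3a1 from 75.2 to 139 CPM.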

How the data were processed

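Messenger RNA was measured by stranded TruSeq sequencing in 12 organoid libraries, per the labels' protocols. The authors deposited raw read counts per Ensembl gene. They also deposited log2 values, and 0 of these differed from log2 of the depth-scaled count plus 1, so they were not used. The submitters' processing notes name TopHat2 2.1, Bowtie 1.1.0, HTSeq, DESeq2 and the build GRCm38, with no model. Strand use, treatment of reads with several matches and annotation release are not given in the sources used here. No column of the tables was left without a sample. GENCODE M21 holds 24902 of the identifiers, 99.996% of them on the same chromosome. Flg carries another identifier there and was matched by name and position.

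Genes were filtered with edgeR's filterByExpr by group, scaled by TMM and tested with edgeR 4.0.16 (R 4.3.3), using the robust quasi-likelihood test, two-sided, over all 12 libraries with a mean per group. Benjamini-Hochberg adjustment ran over 15316 genes with a threshold of 0.05. The SE of a log2 fold change or slope was computed back from the test, as its absolute value over the square root of the F statistic. It was not estimated separately, so for genes with few or no DMSO reads it is only a rough guide. The fits were run on simulated data with the same spread for all genes, no culture effect and changes smaller than those of the 6 genes at 3 µM. That check does not cover genes with almost no DMSO reads. Since replicate numbers are animals, the culture as a block was the paired alternative. Deviations from group means correlated in all 18 same-numbered pairs (0.177 to 0.840, median 0.505). The 36 other pairs ran from −0.728 to 0.288 (median −0.212). Deviations sum to 0 within each group, which in itself pushes the other pairs below 0, so these are not separate evidence. Ratios against few reads have exact conditional binomial intervals at 95%, and where DMSO had no read a floor of 3 counts in the smallest DMSO library was used. Without molecular identifiers, both cover counting error only. Correlations used log2 CPM with a prior count of 2. Promoters are from RefSeq (GRCm38.p6), with 6 of 6 genes matched, and transcripts from GENCODE M21. Krt26, Krt72, Krt31 and Krt85 were not analysed here, and Adgre1 was matched by identifier as Emr1. The 6 genes and all lists were chosen with earlier results of these data known. Named list genes are up to 4 called genes with the largest change at 3 µM, plus those left uncalled where these numbered 3 or fewer. Furin, Cebpa, the untested genes of the oral list and the named neighbours were chosen after their values were seen. Alternatives were the block, DESeq2 1.42.0, library size alone, no filter, the compared groups alone, and fits without each library or each culture.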

Additional observations from a re-analysis of the deposited data

How the results depend on the processing

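Of the fitted changes of single genes under the alternatives, 632 kept their direction and their side of the threshold, 45 kept the direction and lost the call, 23 kept the direction and gained it, and 3 turned in sign. The 3 were all Flg at 3 against 1.5 µM, which was not called: −0.091 with library size alone, −0.24 without the 3 µM library of culture 1 and −0.25 without the 1.5 µM library of culture 3. Leaving out 1 library or culture gave values from −0.25 to 0.61 for it. The number of the 6 genes called at 1 µM was 1, and it was 4 with the replicate block, 5 with DESeq2, 0 without the filter and 0 with only the compared groups. Of all genes tested, 0.189% were called higher in the main fit, 2.55% with the block and 2.22% with DESeq2. With only the compared groups 3 of the 6 genes passed the filter, Flg, Rptn and Tchh, and Crnn, Flg2 and Hrnr were not tested. At an unadjusted p under 0.05 the number was 6 without the filter and 3 of these 3 with only the compared groups. For 1.5 against 1 µM the number was 2, and it was 5 with the replicate block, 4 with DESeq2, 1 without the filter and 0 with only the compared groups, where 5 had an unadjusted p under 0.05. Here 4.43% of all genes tested were called higher in the main fit, 11.3% with the block and 7.05% with DESeq2. For 3 against 1.5 µM it was 2, where 17.0% of all genes were called higher. With the replicate block it was 5, where 24.7% of all genes were higher and 22.0% lower. The block changed no count at 1.5 or 3 µM against DMSO or for the slope. Leaving out 1 library or 1 culture gave 0 to 2 genes at 1 µM, 2 to 6 at 1.5 µM, 5 to 6 at 3 µM, 0 to 4 for 1.5 against 1 µM, 1 to 5 for 3 against 1.5 µM, 4 to 5 for the slope and 2 to 4 for the culture term. Fits without a culture or a library test fewer samples, and otherwise the cause of these changes was not tested. The shares of all genes called in those fits, without the filter or with only the compared groups are not given here. Over all genes, the share of higher genes among those called at 1 µM was 78.4%, and 68.3% with DESeq2. For 1.5 against 1 µM it was 81.7%, and 65.4% with DESeq2. For the slope it was 51.9%, and 38.5% with library size alone. The replicate numbers are also the term under test in the culture comparison, so no paired alternative exists there. Depth limits Crnn most, with at most 48 reads in a library, and every ratio to DMSO for genes other than Tchh rests on at most 5 control reads.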

Other observations

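Regulators of squamous differentiation moved beside the 6 genes. Of 11 examined, 10 had risen and 1 had fallen at 3 µM (median log2 fold change 2.61), with 9 and 1 at 1.5 µM (median 1.21) and 0 and 0 at 1 µM, where the replicate block gave 5 and 1. Of all genes tested, 29.9% rose and 27.7% fell at 3 µM, 15.4% and 11.8% at 1.5 µM, and 2.55% and 3.06% at 1 µM with the block. Hopx, a homeodomain protein of differentiating keratinocytes, rose by 5.74 ± 0.54 at 3 µM, and Grhl3, a factor for barrier genes, rose by 5.41 ± 0.33. Klf4 rose by 3.99 ± 0.30, from a mean of 20.0 CPM in DMSO to 319 CPM. Ovol1 rose by 3.79 ± 0.44. Cebpa, which acts in both epidermal differentiation and adipocytes and is named here after its value was seen as the gene that fell, fell by 1.75 ± 0.32 (edgeR adjusted p = 0.00118), from a mean of 183 CPM to 54.4 CPM. The adipocyte markers fell over the same doses, and their part in the lower Cebpa level was not tested.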
